A study of Mus musculus with 160 samples.

Results

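The distal colons of the *Dock2* and *Gpsm3* lines were ordered by 4 genes of acute inflammation, and the mice with the highest and the lowest values were set side by side. The 4 genes were *S100a8* and *S100a9*, which encode the subunits of the neutrophil protein calprotectin, *Il1b*, which encodes the cytokine interleukin 1 beta, and *Cxcl2*, which encodes a chemokine that attracts neutrophils. Levels are raw counts of a gene divided by the total of its file, on the usual CPM scale, and the score of a mouse was the mean of log2(CPM + 1) over the 4 genes. Mice were ranked within each line and cut into 3 groups of about equal size, and the high-score and the low-score group were compared, which gave 54 of the 82 mice of these lines and of the 160 in the series. There were 27 mice in the high-score group (14 of the *Dock2* line and 13 of the *Gpsm3* line), 27 in the low-score group (14 and 13), and 28 in the middle group.

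The mice were of strain C57BL6/J, and knockout and wild-type mice came from crosses of heterozygotes. The *Dock2* line had 18 knockout and 24 wild-type mice, 20 of them female and 22 male, and the *Gpsm3* line had 20 knockout and 20 wild-type mice, all male. Per the labels these lines were given 3% dextran sulfate sodium (DSS) for 5 days and then water for 5 days, and the colon was taken on day 10. The study's methods state that untreated mice were also sequenced, and the labels do not say which mice those were, so the groups were chosen by measured levels and are not treatment groups. A mouse in the high-score group may differ from one in the low-score group by treatment, by the course of disease or by the piece of tissue taken, and these cannot be told apart. The groups also differed in sex and genotype: 6 of 27 high-score and 9 of 27 low-score mice were female, and 13 and 10 were knockout. Since the groups were selected on 4 genes of the same libraries, differences between them are given as a description, with no p-value per gene.

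DSS damages the lining of the colon, after which bacteria reach the tissue and neutrophils and monocytes enter it from the blood. The damaged epithelium loses mature absorptive cells, regenerates from the crypts, and releases antimicrobial proteins, while fibroblasts and macrophages remodel the matrix. In whole tissue, fewer cells of a type and less RNA per cell cannot be told apart.

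Totals ranged from 4344988 to 19993833 counts per library, and 2 libraries were under 10000000, of which 1 was in the high-score group with 9863590 counts. The summed level of 14 skin markers, of which 13 were in the files, was above 1000 CPM in 8 libraries, 3 of them in the high-score group, 5 in the middle group and none in the low-score group. Outside those libraries it did not pass 60.7 CPM. Values that these libraries moved by over 1.5 times, and counts of list members that differed without them, are given both ways where the lists are described. *Dock2* had a median of 35.7 CPM (15.2 to 70.4) in wild-type and 22.4 CPM (12.6 to 45.4) in knockout mice of its line, so the ranges overlapped. Which part of the gene was deleted is not given in the sources used here, so counts over the whole gene do not check the labels of that line. *Gpsm3* had a median of 3.15 CPM (0.731 to 7.90) in wild-type and 0.557 CPM (0.238 to 3.47) in knockout mice. In 3 of 40 libraries of that line the level went against the label, lying on the other side of 1.32 CPM, midway between these medians on the log scale: 2 libraries labelled knockout, both in the middle group, had 2.75 and 3.47 CPM, and 1 labelled wild type, in the low-score group, had 0.731 CPM. Genotype and sex were no terms of the fit between the groups. With both as covariates 796 genes were called higher and 242 lower by the rule given below, against 822 and 247 without. The level of the Y-linked *Ddx3y* was at odds with the labelled sex in 0 of 82 libraries.

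Within the *Dock2* line the score was 2.37 to 8.60 (median 4.03) in the high-score group, 0.67 to 2.23 in the middle group and 0.291 to 0.656 in the low-score group. Within the *Gpsm3* line it was 2.67 to 7.81 (median 4.50), 0.597 to 2.22 and 0.203 to 0.563. The cut ran through closely spaced mice at the low end: the highest mouse of the low-score group and the lowest of the middle group had scores of 0.656 and 0.67 in the *Dock2* line, and of 0.563 and 0.597 in the *Gpsm3* line. At the high end the neighbours were 2.23 and 2.37 in the *Dock2* line, and 2.22 and 2.67 in the *Gpsm3* line. The low-score mice therefore formed a narrow band, and the high-score mice spread over a wide range. In the low-score mice *S100a8* was at most 0.534 CPM and *Cxcl2* at most 0.344 CPM, where 3 counts stood for 0.166 to 0.211 CPM. The order and the spread at this end thus rest partly on counting error and on the 1 added to each CPM.

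**Figure D1:**
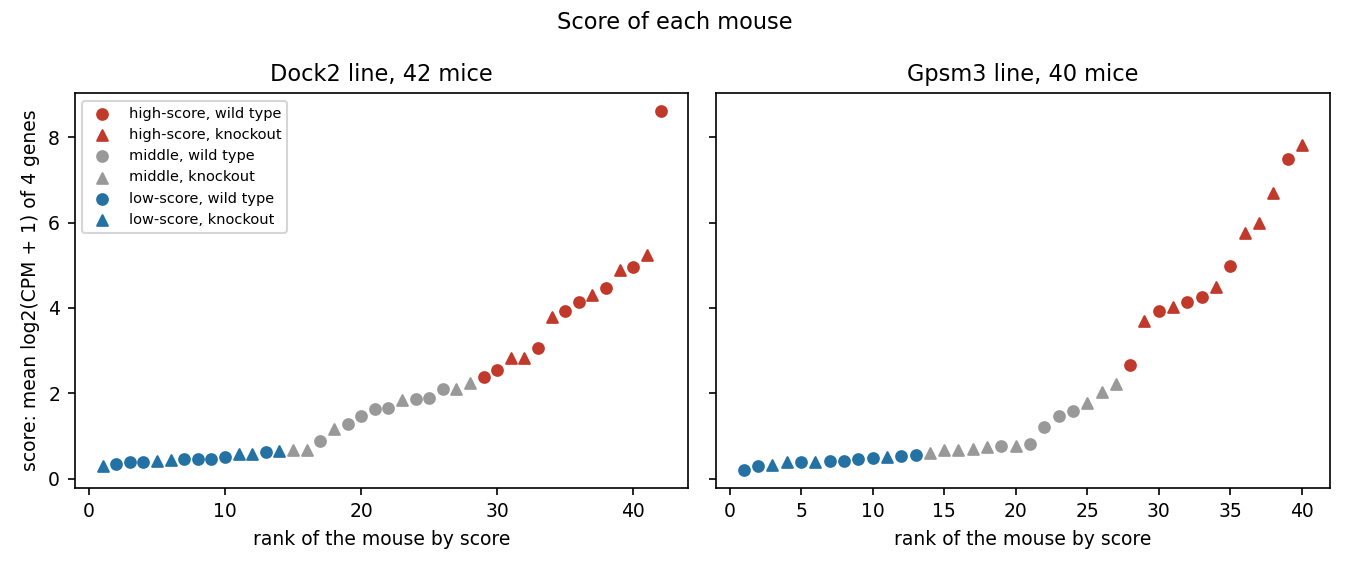
Score of each mouse (mean log2(CPM + 1) of 4 genes) against its rank within the *Dock2* line (left) and the *Gpsm3* line (right). Each point is 1 mouse, coloured by group, with circles for wild type and triangles for knockout; the highest knockout scores were 5.23 in the *Dock2* line and 7.81 in the *Gpsm3* line, against 8.60 and 7.48 in wild type.

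The top of the *Dock2* line was 1 mouse far from its neighbours. Wild-type mouse 13, which is also the library with 9863590 counts, scored 8.60, with 677 CPM of *S100a8*, 859 CPM of *S100a9*, 407 CPM of *Il1b* and 95.6 CPM of *Cxcl2*. Without it, 790 genes were called higher and 233 lower by the rule given below, against 822 and 247 with it. The next mouse of that line, knockout mouse 13, scored 5.23, with 66.3 CPM of *S100a8*. In the *Gpsm3* line the top of the ranking was more evenly filled, with scores of 7.81, 7.48 and 6.70 in the 3 highest mice.

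Genotype was not used in the ranking, so its relation to the score could be tested. The labels do not say which mice were untreated, so the tests below cannot separate genotype or sex from treatment. In the *Dock2* line the mean score was 1.97 ± 1.66 (SD, n = 18) in knockout and 2.10 ± 1.98 (SD, n = 24) in wild-type mice, a difference of -0.127 (two-sided permutation test, p = 0.842, adjusted p = 1.0 over 6 tests). In the *Gpsm3* line it was 2.51 ± 2.45 (SD, n = 20) in knockout and 1.85 ± 2.04 (SD, n = 20) in wild-type mice, a difference of 0.66 (two-sided permutation test, p = 0.362, adjusted p = 0.857). Without the 3 libraries whose *Gpsm3* level went against the label the difference was 0.71 (permutation p = 0.359, adjusted p = 0.857). The groups of the *Dock2* line held the same number of knockouts, 6 in each, and those of the *Gpsm3* line held 7 in the high-score and 4 in the low-score group (two-sided Fisher's exact test, p = 0.428, adjusted p = 0.857). Females of the *Dock2* line scored 1.54 ± 1.42 (SD, n = 20) and males 2.50 ± 2.06 (SD, n = 22), a difference of -0.958 that did not pass the threshold (two-sided permutation test, p = 0.0855, adjusted p = 0.513). Without the libraries with skin RNA that difference was -1.41 (permutation p = 0.0136, adjusted p = 0.0815). The 2 runs of sample numbers in the *Gpsm3* line, which the labels give as shorter and longer numbers, differed by 0.32 in mean score (permutation p = 0.661, adjusted p = 0.992).

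Of 17551 genes tested with edgeR, with the 4 score genes left out, 822 were at least 2-fold higher in the high-score group at an adjusted p under 0.05 (4.68% of the genes tested) and 247 were at least 2-fold lower (1.41%). These genes are called higher or lower below, and all fold changes are log2 fold changes, high-score minus low-score group, with the standard error (SE) of the edgeR fit with line as a covariate. A stricter description needs no model: in 131 genes (0.746%) every high-score mouse was above every low-score mouse of its own line, and in 22 genes (0.125%) every high-score mouse was below. The median fold change over all genes tested was -4.7e-05. Genes that passed the filter on low counts only because they are high in the high-score group had to differ. Counts below are therefore set beside the number tested and the number listed. Such genes named below include *Cxcr2*, *Clec4e*, *Trem1* and *Saa3*. The same holds in good part for *Mmp8*, *Chil3*, *Osm*, *Sele*, *Il5ra* and *Acod1*, which had very low medians in the low-score group. It also holds in good part for *Il1r2*, *Cxcl1*, *Spp1* and *Krt13*, which were low in most low-score mice.

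**Figure D2:**
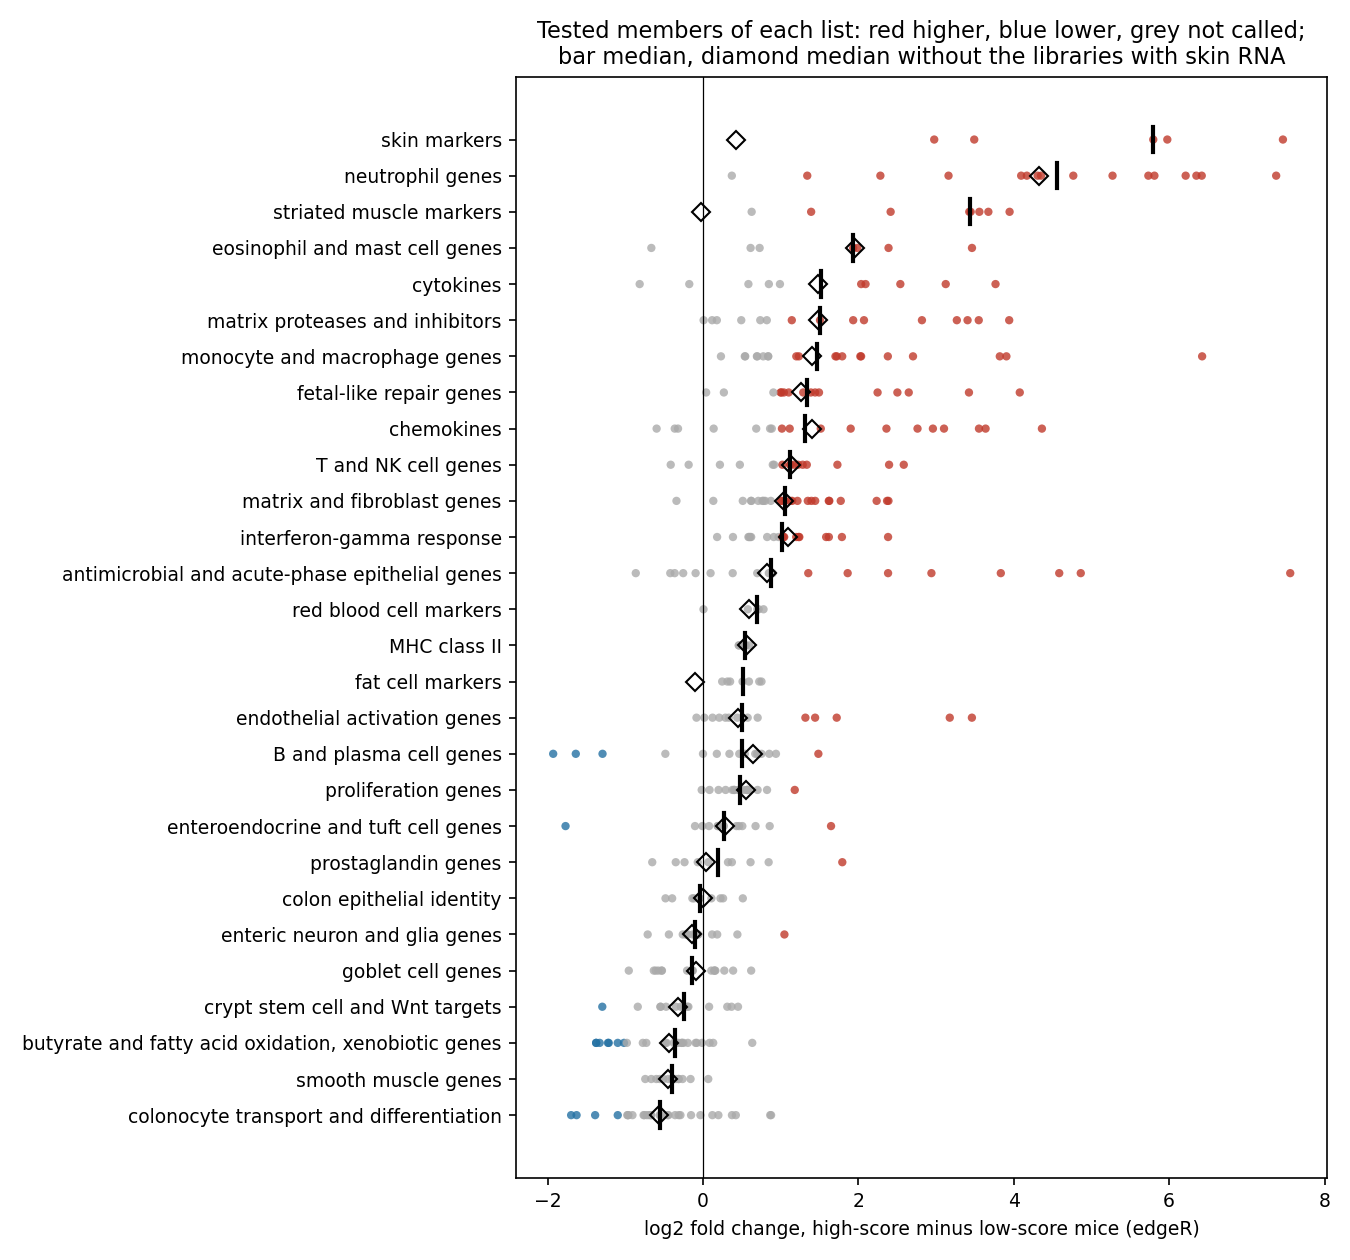
Log2 fold change between the high-score and low-score groups (27 mice each, x axis) for the tested members of each gene list (y axis), with members called higher in red, called lower in blue and not called in grey. The bar is the list's median and the diamond its median without the libraries with skin RNA; the diamond leaves the bar in the skin, striated muscle and fat cell lists, from 5.80 to 0.43, from 3.44 to -0.03 and from 0.51 to -0.10.

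Of 24 neutrophil genes listed, 16 were tested, 15 were called higher and 0 lower, with a median fold change of 4.56, and 9 did not overlap between the groups in either line. The score was itself built on neutrophil genes and a neutrophil attractant, so the direction and rank of this list were set by the ranking. *Cxcr2*, *Clec4e* and *Trem1*, at most 0.592, 0.324 and 0.421 CPM in the low-score group, were tested because of their level in the high-score group. *Cxcr2*, the receptor for *Cxcl2* and related chemokines, was 0 to 0.592 CPM (median 0.118) in the low-score group and 1.63 to 72.3 CPM (median 7.49) in the high-score group. Its log2 fold change was 6.42 ± 0.44 (SE), and all 27 high-score mice lay above the low-score mice of their line. *Clec4e*, a receptor that senses damaged cells and mycobacterial lipids, was 0 to 0.324 CPM (median 0.0632) in the low-score group and 0.839 to 104 CPM (median 5.85) in the high-score group, with a log2 fold change of 7.38 ± 0.56 (SE). *Trem1*, an amplifier of innate signalling, had medians of 0.177 and 4.21 CPM in the low-score and high-score groups, and *Il1r2*, the decoy receptor of interleukin 1, had medians of 0.428 and 5.89 CPM. Neither gene overlapped between the groups, and *Il1r2* too was tested in good part because of its level in the high-score group. The collagenase *Mmp8* of neutrophil granules had medians of 0.0609 and 2.69 CPM, with a log2 fold change of 6.35 ± 0.73 (SE), and reached 147 CPM in 1 high-score mouse. Without wild-type mouse 13 of the *Dock2* line its log2 fold change was 5.50. *Ly6g*, the surface marker used to sort mouse neutrophils, was the exception among those tested: it was 20.1 to 90.6 CPM (median 49.7) in the low-score group and 26 to 156 CPM (median 61.5) in the high-score group, with a log2 fold change of 0.37 ± 0.13 (SE) that was not called.

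Of the 8 neutrophil genes that were not tested, *Fpr1*, a receptor for bacterial formyl peptides, was at 1 CPM or more in 15 high-score mice and 0 low-score mice. *Ngp*, a granule gene of maturing neutrophils, was at 1 CPM or more in 7 high-score mice, with a highest value of 30.4 CPM. The primary granule genes *Mpo* and *Elane*, which are transcribed in bone marrow precursors, stayed under 1 CPM in all 54 mice.

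Chemokines that attract neutrophils and monocytes were among those higher. *Cxcl2*, a neutrophil attractant, was a score gene, so the direction of related attractants was in part set by the ranking. Of 21 listed, 18 were tested, 11 were called higher (10 without the libraries with skin RNA) and 0 lower, with a median of 1.32. The neutrophil attractant *Cxcl5* was 1.12 to 5.44 CPM (median 2.32) in the low-score group and 8.66 to 240 CPM (median 30.0) in the high-score group, with a log2 fold change of 4.36 ± 0.32 (SE) and no overlap. *Cxcl1*, which acts on the same receptor, had medians of 0.548 and 3.00 CPM and a log2 fold change of 3.64 ± 0.38 (SE). For it 26 of 27 high-score mice lay above the low-score mice of their line. It was tested in good part because of its level in the high-score group. The monocyte attractants *Ccl2* and *Ccl8* had log2 fold changes of 3.10 ± 0.30 and 2.76 ± 0.22 (SE). *Ccl20*, an epithelial attractant of dendritic cells and lymphocytes, had medians of 2.13 CPM in the low-score and 1.30 CPM in the high-score group and a log2 fold change of -0.60 ± 0.22 (SE) that was not called.

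Among cytokines, 10 of 20 listed were tested and 5 were called higher, with 0 lower. *Osm*, which encodes oncostatin M, had medians of 0.261 and 1.76 CPM and a log2 fold change of 3.77 ± 0.37 (SE). *Il11*, a fibroblast cytokine, had a log2 fold change of 3.12 ± 0.35 (SE), and the alarmin *Il33* one of 2.09 ± 0.19 (SE). *Il15*, which sustains intraepithelial lymphocytes, was 14 to 40.6 CPM (median 28.0) in the low-score group and 6.49 to 23.2 CPM (median 16.7) in the high-score group, with a log2 fold change of -0.81 ± 0.10 (SE), under the fold needed for a call. T cell cytokines were at the floor: *Il17a* was at 1 CPM or more in 1 high-score mouse, *Il22* in 1 and *Ifng* in 1, and in 0 low-score mice. *Il6* was at 1 CPM or more in 11 high-score and 0 low-score mice and reached 24.7 CPM.

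Of 21 monocyte and macrophage genes listed, 20 were tested and 12 called higher, with 0 lower and a median of 1.47. *Chil3*, a secreted lectin of activated macrophages, had medians of 0.119 and 6.81 CPM and a log2 fold change of 6.42 ± 0.55 (SE). *Spp1*, which encodes osteopontin, was 0 to 0.853 CPM in the low-score and 0.848 to 15.3 CPM in the high-score group. It did not overlap within a line, and it was tested in good part because of its level in the high-score group. *Cx3cr1*, a receptor of resident gut macrophages, had medians of 14 and 16 CPM and a log2 fold change of 0.23 ± 0.13 (SE) that was not called. *Arg1*, which encodes arginase 1, shows what 3 libraries can do: its log2 fold change was 3.91 ± 0.56 (SE) with all mice and 1.74 ± 0.28 (SE) without the libraries with skin RNA.

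Of 21 interferon-gamma response genes listed, 19 were tested and 10 called higher (12 without the libraries with skin RNA), with 0 lower and a median of 1.02, and 0 were free of overlap between the groups. *Ido1*, which breaks down tryptophan, was 0.632 to 55.9 CPM (median 1.95) in the low-score group and 1.40 to 150 CPM (median 6.12) in the high-score group, with a log2 fold change of 2.38 ± 0.49 (SE). The guanylate-binding protein gene *Gbp2* was 29.1 to 474 CPM (median 39.3) in the low-score and 24.7 to 790 CPM (median 98.4) in the high-score group, with a log2 fold change of 1.23 ± 0.32 (SE). These calls were not kept in wild-type mice alone, where *Ido1* had a log2 fold change of 1.02, *Gbp2* one of 0.42 and *Igtp*, described below, one of 0.55, against 1.24 with all mice. With genotype and sex as covariates *Gbp2* was at 0.95 and *Igtp* at 0.96, also not called. In the mean over the list, 9 of 27 high-score mice were above the low-score mice of their line, against 27 of 27 for the neutrophil list, and 1 low-score mouse reached a list mean of 6.06, within the range of the high-score mice (3.98 to 6.92). Class II major histocompatibility genes, which present antigen, were all positive in sign (9 of 9) with a median of 0.54, and 0 of 9 were called. *H2-Ab1* had medians of 81.3 and 109 CPM and a log2 fold change of 0.55 ± 0.14 (SE).

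Promoters of 3 called genes are printed to show letters that members of these lists share. Each is 300 bases of RefSeq sequence on GRCm38.p6, 250 bases before to 50 after the annotated start, with matches to 1 motif in capitals, the interferon-stimulated motif in *Gbp2* and *Igtp* and the kappa B motif in *Cxcl1*. The interferon-stimulated motif was searched as GAAA, any 2 bases and GAAA again, and the kappa B motif as GGGAA, any 1 base and TTCC, on both strands. The 2 capital matches in the *Cxcl1* promoter overlap, since the motif reads nearly alike on both strands.

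*Gbp2*, chr3:142620413-142620712, + strand: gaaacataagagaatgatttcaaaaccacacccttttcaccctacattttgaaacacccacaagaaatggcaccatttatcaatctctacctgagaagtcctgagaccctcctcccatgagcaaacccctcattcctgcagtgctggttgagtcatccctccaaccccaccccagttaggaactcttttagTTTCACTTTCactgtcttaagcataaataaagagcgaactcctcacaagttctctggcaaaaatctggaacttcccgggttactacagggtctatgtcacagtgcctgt

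*Igtp*, chr11:58199306-58199605, + strand: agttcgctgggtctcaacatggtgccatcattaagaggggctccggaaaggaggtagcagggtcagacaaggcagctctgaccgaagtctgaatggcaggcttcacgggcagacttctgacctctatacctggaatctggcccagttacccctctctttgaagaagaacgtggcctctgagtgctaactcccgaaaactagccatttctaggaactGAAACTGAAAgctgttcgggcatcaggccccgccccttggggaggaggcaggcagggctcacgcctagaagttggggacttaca

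*Cxcl1*, chr5:90890995-90891294, + strand: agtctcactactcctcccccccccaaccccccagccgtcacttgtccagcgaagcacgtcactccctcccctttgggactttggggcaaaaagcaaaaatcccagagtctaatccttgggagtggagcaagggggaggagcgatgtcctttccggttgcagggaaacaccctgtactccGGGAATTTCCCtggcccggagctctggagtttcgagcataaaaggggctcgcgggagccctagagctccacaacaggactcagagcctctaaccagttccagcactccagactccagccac

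The interferon-stimulated letters were in the window of 8 of 12 interferon-gamma response genes with a promoter entry (66.7%), among them *Gbp2* and the immunity-related GTPase gene *Igtp*, and in 3.99% of 27025 genes with an entry. They were in 2 of 12 chemokine genes with an entry. The kappa B letters were in 3 of 12 chemokine genes with an entry (*Cxcl1*, *Cxcl3* and *Cxcl10*), in 2 of 12 interferon-gamma response genes (*Gbp2*, where they are left in lower case above, and *Gbp5*) and in 0.396% of all. *Igtp* had medians of 10.6 and 22.5 CPM in the low-score and high-score groups. A match is a string of letters and no measurement of binding.

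Antimicrobial and acute-phase genes were divided. Of 22 listed, 18 were tested, 8 were called higher and 0 lower, with a median of 0.87. *Saa3*, an acute-phase serum amyloid gene, lies on chromosome 7 (46711998 to 46715700, minus strand). It was 0 to 0.481 CPM (median 0.196) in the low-score group and 0.685 to 255 CPM (median 18.7) in the high-score group. Its log2 fold change was 7.56 ± 0.56 (SE), with no overlap. With at most 0.481 CPM in the low-score group, it was tested because of its level in the high-score group. *Saa1*, of the same family, was 210 to 1581 CPM (median 560) in the low-score and 92.9 to 854 CPM (median 468) in the high-score group, with a log2 fold change of -0.36 ± 0.18 (SE) that was not called. *Nos2*, the inducible nitric oxide synthase, had medians of 2.09 and 39.4 CPM and a log2 fold change of 4.86 ± 0.52 (SE). *Retnlb*, a bactericidal goblet cell product, had a log2 fold change of 4.59 ± 0.43 (SE), and *Slpi*, an inhibitor of neutrophil proteases, had one of 2.94 ± 0.21 (SE) with no overlap. *Wfdc2*, another protease inhibitor of the epithelium, was lower in sign, with medians of 157 and 86.1 CPM, and 26 of 27 high-score mice lay below the low-score mice of their line. Its log2 fold change of -0.86 ± 0.10 (SE) was under the fold needed for a call. *Reg3b* and *Reg3g*, lectins that bind bacterial walls, were not tested and had high-score medians of 0.30 and 0.25 CPM.

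Some genes of the mature colonocyte were lower. Of 30 transport and differentiation genes, 29 were tested, 4 were called lower and 0 higher, 23 were negative and 6 positive in sign, and the median was -0.56. Without the libraries with skin RNA 5 were called lower and 1 higher. *Slc20a1*, a phosphate transporter, was 290 to 1106 CPM (median 737) in the low-score group and 65.6 to 484 CPM (median 236) in the high-score group, with a log2 fold change of -1.70 ± 0.18 (SE). *Aqp8*, a water channel of the surface epithelium, had medians of 398 and 132 CPM (log2 fold change -1.63 ± 0.21, SE), and the sulfate transporter *Slc26a2* had medians of 2827 and 1005 CPM (log2 fold change -1.39 ± 0.16, SE). The chloride and bicarbonate exchanger *Slc26a3* had a log2 fold change of -1.10 ± 0.17 (SE). *Guca2b*, which encodes uroguanylin, was furthest the other way at 0.88 ± 0.13 (SE), not called.

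Of 26 genes of butyrate and fatty acid oxidation and xenobiotic handling, 26 were tested, 7 were called lower and 0 higher, with a median of -0.36. In the list mean 27 of 27 high-score mice lay below the low-score mice of their line, with list means of 4.48 to 5.75 against 5.76 to 6.21 on the log2(CPM + 1) scale, and 1 member did so on its own. *Pck1*, of gluconeogenesis, had medians of 164 and 58.0 CPM (log2 fold change -1.37 ± 0.18, SE). *Abcb1a*, a drug efflux pump, had medians of 954 and 476 CPM (log2 fold change -1.33 ± 0.19, SE).

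**Figure D3:**
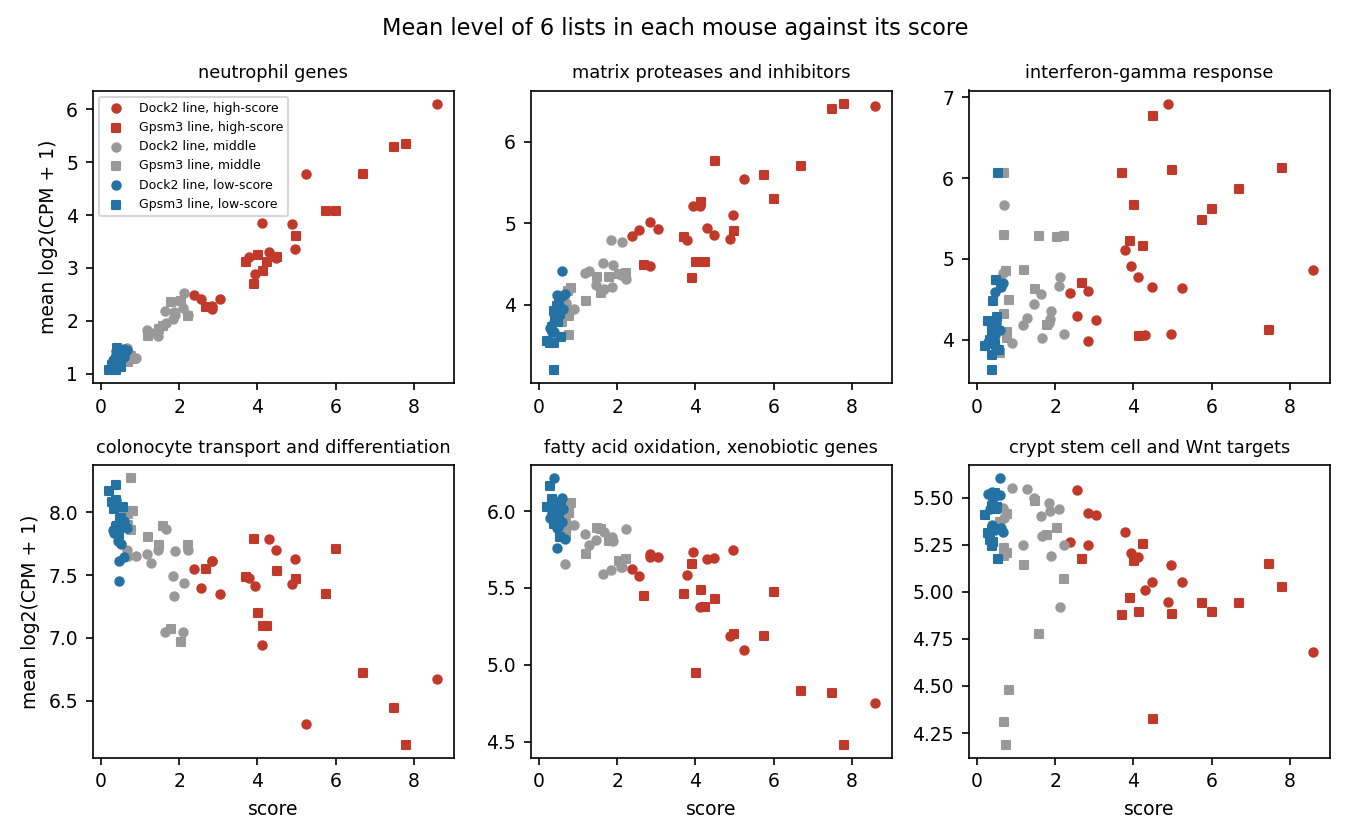
Mean log2(CPM + 1) over the tested members of 6 gene lists (y axis) against the score of the mouse (x axis), 1 point per mouse, coloured by group, with circles for the *Dock2* line and squares for the *Gpsm3* line. Neutrophil and protease lists climb with the score, and the mixed list of oxidation and xenobiotic genes descends. Interferon-gamma response genes scatter, with 1 low-score mouse at 6.06.

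Genes lower in every high-score mouse than in the low-score mice of its line were mostly not on the lists. *Sycn*, which encodes the secretory granule protein syncollin (chromosome 7, 28540885 to 28542209, plus strand), was 192 to 473 CPM (median 317) in the low-score group and 5.20 to 226 CPM (median 63.8) in the high-score group, with a log2 fold change of -1.95 ± 0.25 (SE). *Otc*, the urea cycle enzyme ornithine transcarbamylase, had medians of 7.69 and 2.27 CPM (-1.72 ± 0.17, SE), and *Dpyd*, which degrades pyrimidines, had medians of 31.6 and 7.18 CPM (-1.65 ± 0.16, SE). *Shisa2*, *Klk1*, *Tspan33* and *Cela1* completed the 7 named genes of this kind whose average log2 CPM reached 2, with log2 fold changes from -1.54 to -1.09. Some genes fell further with a little overlap, and these were picked after their values were seen. *Mptx1*, a pentraxin gene, was 426 to 1178 CPM (median 787) in the low-score and 0.791 to 648 CPM (median 79.6) in the high-score group, and *Slc37a2*, a sugar phosphate transporter gene, had medians of 562 and 109 CPM. For both, 25 of 27 high-score mice lay below the low-score mice of their line.

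Goblet cell genes did not pass as a group in either direction: 16 of 17 were tested and 0 were called, with a median of -0.13. Without the libraries with skin RNA 1 was called lower and the median was -0.087. *Clca1*, a secreted mucus protein, had medians of 4445 and 2470 CPM and a log2 fold change of -0.95 ± 0.26 (SE). *Spink4*, a protease inhibitor of goblet cells, was on the other side, with medians of 140 and 231 CPM and a log2 fold change of 0.62 ± 0.11 (SE). All 10 genes of colon epithelial identity were tested and 0 were called, with a median of -0.04 (0.002 without the libraries with skin RNA). Their summed level had medians of 9402 CPM in the low-score and 9796 CPM in the high-score group. *Cdx2*, a transcription factor of the intestinal epithelium, had a log2 fold change of 0.51 ± 0.18 (SE), not called.

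Among 15 crypt stem cell and Wnt target genes tested of 16 listed, 1 was called lower and 0 higher. That gene was *Lgr5*, the marker of crypt base stem cells, at 9.19 to 31.0 CPM (median 17.7) in the low-score and 0.779 to 22.8 CPM (median 6.54) in the high-score group, with a log2 fold change of -1.29 ± 0.18 (SE). *Ascl2*, a transcription factor of the same cells, had a log2 fold change of -0.84 ± 0.19 (SE), not called. Proliferation genes were positive in sign in 17 of 18, with 1 called higher, *Rrm2*, which makes deoxyribonucleotides (1.18 ± 0.18, SE). Of 20 genes listed for fetal-like repair of the epithelium, 16 were tested and 13 called higher (10 without the libraries with skin RNA), with a median of 1.34. *Il1rl1*, the receptor of interleukin 33, was 1.58 to 4.56 CPM (median 2.87) in the low-score and 8.02 to 145 CPM (median 18.5) in the high-score group, with no overlap and a log2 fold change of 3.42 ± 0.29 (SE). The growth factor gene *Ereg* had medians of 7.53 and 29.6 CPM (2.65 ± 0.29, SE). *Clu*, often used to mark revival stem cells, had medians of 55.4 and 51.4 CPM and a log2 fold change of 0.04 ± 0.13 (SE).

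Matrix and fibroblast genes were called higher in 15 of 25 listed, all tested (13 without the libraries with skin RNA), and matrix proteases and inhibitors in 9 of 15 tested of 16 listed, with 0 lower in both. *Lox*, which cross-links collagen, was 5.14 to 19.8 CPM (median 9.38) in the low-score and 20.4 to 156 CPM (median 41.8) in the high-score group, with no overlap and a log2 fold change of 2.39 ± 0.19 (SE). *Col1a1*, a chain of type I collagen, had medians of 321 and 818 CPM (1.45 ± 0.15, SE). *Fap*, a fibroblast surface protease, was furthest the other way, at -0.34 ± 0.11 (SE), not called. *Mmp10*, a stromelysin, had medians of 0.903 and 6.81 CPM (3.94 ± 0.35, SE) and *Timp1*, an inhibitor of such proteases, had medians of 1.77 and 13 CPM (3.41 ± 0.28, SE). Both were free of overlap. *Timp3*, of the same inhibitor family, had a log2 fold change of 0.01 ± 0.08 (SE), and its sign changed with the processing.

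On the vessel wall, 5 of 14 endothelial genes were called higher. The selectin *Selp*, which lets leukocytes roll, was 1.10 to 3.19 CPM (median 1.72) in the low-score and 4.71 to 65.9 CPM (median 11.3) in the high-score group (3.18 ± 0.25, SE), with no overlap, and *Sele* had medians of 0.198 and 1.74 CPM (3.46 ± 0.30, SE). *Kdr*, a growth factor receptor of all endothelium, had medians of 28.0 and 25.4 CPM and was not called. Of 21 T and NK cell genes listed, 16 were tested and 10 called higher (9 without the libraries with skin RNA) with a median of 1.12, among them the checkpoint receptor *Ctla4* (2.58 ± 0.25, SE) and the protease *Gzmb* (2.40 ± 0.35, SE). The eosinophil receptor *Il5ra* had medians of 0.261 and 2.67 CPM (3.46 ± 0.31, SE), while the eosinophil granule genes *Epx* and *Prg2* stayed under 1 CPM in all 54 mice. Of 16 enteroendocrine and tuft cell genes listed, 13 were tested, 10 positive and 3 negative in sign, with a median of 0.27. Of these, 1 was called higher and 1 lower (1 and 2 without the libraries with skin RNA). The 1 lower was *Trpm5*, a channel of tuft cells, with medians of 6.27 and 1.42 CPM (-1.77 ± 0.16, SE). Of 11 prostaglandin genes listed, 10 were tested, 6 positive and 4 negative in sign, with a median of 0.20 (0.04 without those libraries). The 1 called was *Ptgs2*, the inducible cyclooxygenase, higher with medians of 10.1 and 24 CPM (1.79 ± 0.24, SE). *Gfap*, a filament of enteric glia, was the 1 gene called among 16 of neurons and glia (1.05 ± 0.15, SE). The list of neurons and glia leaned the other way, with 4 positive and 12 negative in sign and a median of -0.10. Over all genes tested 4.68% were called higher. A single gene called higher among 10, 13 or 16 tested is thus no result about its list. Smooth muscle genes were negative in sign in 13 of 14 with a median of -0.39, and 0 were called.

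Among B and plasma cell genes, 16 of 17 listed were tested, 12 were positive and 4 negative in sign, and the median was 0.50, with 3 called lower and 1 higher (3 and 2 without the libraries with skin RNA). The 3 called lower were *Jchain* and 2 immunoglobulin constant regions. *Jchain*, which joins secreted antibody into polymers, was 16.8 to 324 CPM (median 51.1) in the low-score group and 1.28 to 126 CPM (median 11.1) in the high-score group, with a log2 fold change of -1.93 ± 0.38 (SE). *Igha*, the constant region of immunoglobulin A, had medians of 152 and 36.0 CPM (-1.64 ± 0.44, SE), and *Igkc*, the kappa constant region, had medians of 82.9 and 29.7 CPM (-1.29 ± 0.36, SE). Reads of immunoglobulin genes can be shared between family members. *Prdm1*, which encodes a transcription factor of plasma cells and of other cells, was the 1 called higher (1.49 ± 0.15, SE). Fitted within a line, *Igha* had log2 fold changes of -2.35 in the *Dock2* line and -0.86 in the *Gpsm3* line, and this difference did not pass the test between lines.

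**Figure D4:**
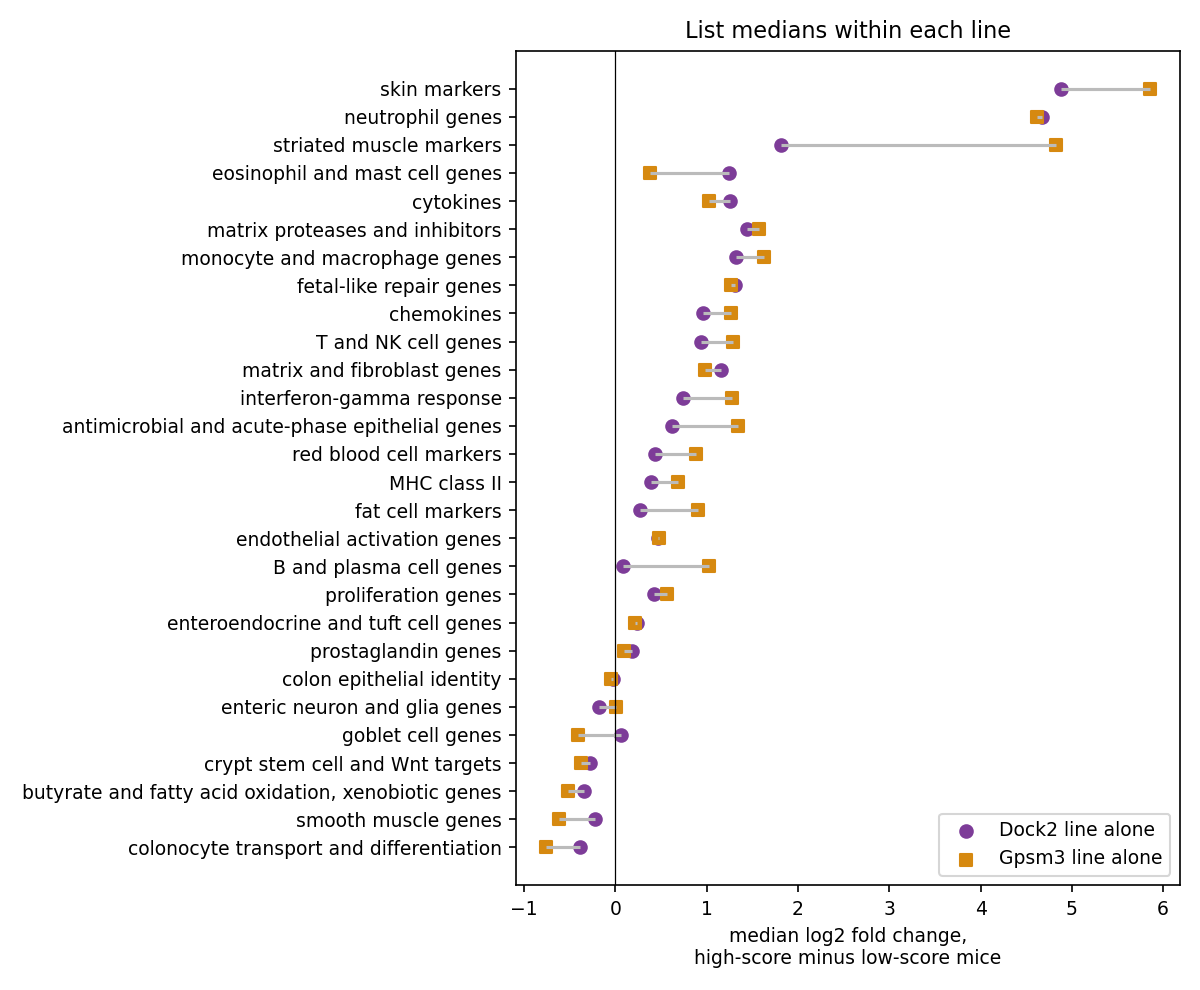
Median log2 fold change, high-score minus low-score group, of the tested members of each list (y axis), fitted in the *Dock2* line alone (circles) and in the *Gpsm3* line alone (squares), each over the members tested in that fit. Neutrophil genes had medians of 4.68 and 4.62 and colonocyte transport genes of -0.39 and -0.76.

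The gap in mean score between the groups was 3.67 in the *Dock2* line and 4.66 in the *Gpsm3* line, so a larger change in the latter was set up by the ranking. A test of the difference between lines, the line by group interaction in edgeR, passed at an adjusted p under 0.05 for 22 genes (0.125% of 17551), 16 more negative and 6 more positive in the *Gpsm3* line. At an unadjusted p under 0.05 there were 1528. Most of the 22 lay at adjusted p = 0.05, and without the libraries with skin RNA there were 82 and 13. *Ces1b*, a carboxylesterase gene, had medians of 1.65 and 0.487 CPM in the low-score and high-score groups of the *Dock2* line and of 1.54 and 0.0581 CPM in the *Gpsm3* line (edgeR, difference -2.03 ± 0.42, SE, adjusted p = 0.0436). *Ighg1*, the constant region of immunoglobulin G1, went opposite ways. Its medians were 5.02 and 0.466 CPM in the *Dock2* line and 1.05 and 1.68 CPM in the *Gpsm3* line, where 1 high-score mouse reached 85.6 CPM (edgeR, difference 4.83 ± 1.05, SE, adjusted p = 0.05).

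Keratin genes of stratified epithelium need the libraries with skin RNA to be taken apart. *Krt13*, a keratin of non-cornified squamous epithelium (chromosome 11, 100117327 to 100121566, minus strand), was 0.0602 to 1.19 CPM (median 0.428) in the low-score group and 0.899 to 2329 CPM (median 4.86) in the high-score group. It did not overlap within a line, and it was tested in good part because of its level in the high-score group. Its log2 fold change was 8.23 ± 0.98 (SE) with all mice and 4.40 ± 0.40 (SE) without the libraries with skin RNA. *Krt14*, a basal keratin, went from 7.46 ± 0.99 to 2.40 ± 0.27 (SE), and *Dsg3*, an adhesion gene of stratified epithelium, from 5.98 ± 0.77 to 2.85 ± 0.34 (SE). *Krt10*, a keratin of cornifying epidermis, went from 5.80 ± 0.96 to -0.43 ± 0.07 (SE), so its higher value rested on those 3 libraries. *Krt36*, *Krt90* and *Plet1* were picked after their values were seen, and without these libraries they had log2 fold changes of 3.86 ± 0.37, 7.75 ± 0.59 and 4.49 ± 0.48 (SE). *Krt36* was at 3.71 with all mice and at 3.06 without wild-type mouse 13 of the *Dock2* line. Of 14 skin markers listed, 5 were tested, and 5 were called higher with all mice and 2 without these libraries. Of 12 striated muscle markers listed, 8 were tested, and the counts were 7 and 0, with 1 then called lower. *Krtdap*, a product of cornifying epidermis, was at 1 CPM or more in 3 high-score mice and 0 low-score mice. None of 7 fat cell markers tested (8 listed) and none of 5 red blood cell markers was called. In the remaining high-score mice the summed skin markers reached 60.7 CPM, and in the low-score mice 17.7 CPM. The part of skin RNA in the levels of these genes was not tested.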

How the data were processed

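Total RNA of distal colon was depleted of ribosomal RNA and sequenced on stranded libraries. The authors aligned reads with STAR and counted them per gene with featureCounts of Subread on mm10, per the submitters' processing notes, and the deposited files hold raw counts of 39179 Ensembl genes per mouse, without normalization. Versions and the strand setting are not given in the sources used here. Symbols from GENCODE on GRCm38 matched 37607 genes. Mitochondrially encoded genes held 0 counts in all files.

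Library totals were 4344988 to 19993833 counts (median 16412163), so 3 counts, the limit that a count of 0 allows, stood for 0.15 to 0.69 CPM. This limit covers counting error only. No pair of libraries within a group agreed within sampling noise (smallest chi-square per gene 4.01). Nothing says that samples are other than separate mice.

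The score and its 3 groups (sizes rounded down) followed the rule in the report. For the 54 libraries, TMM factors and the filterByExpr filter were applied before the fit by the edgeR 4.0.16 quasi-likelihood method in R 4.3.3, with line as covariate and Benjamini-Hochberg adjustment. The SE is the size of the log2 fold change over the square root of F. Both fits were tested on simulated data. Scores were compared by permutation of 100000 resamples with scipy 1.17.1. Alternatives used DESeq2 1.42.0 and limma-voom 3.58.1, the latter being the method of the study, other filters, scores, cuts and samples. The treatment contrast of the study was not fitted, since labels do not give it.

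Named genes were the 10 highest and 10 lowest called genes without overlap whose average log2 CPM reached 2 (7 existed on the lower side), up to 4 members of each of 29 lists, and the 5 extreme interaction genes on each side. Some genes that this rule names are not reported here. Other list members are named for their role, and the remaining genes were picked after their values were seen. The members and lists were chosen with earlier results of these data known.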

Additional observations from a re-analysis of the deposited data

Results flagged for a closer look

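Wild-type mouse 14 of the *Gpsm3* line had a score of 7.48, further from the other 9 wild-type mice of the longer sample numbers than Dixon's 95% limit for 10 samples allows. With normally distributed values chance puts about 1 in 20 such groups past this limit, and 6 groups were examined. Scores were skewed toward high values (median 0.791 and mean 2.18 in the *Gpsm3* line), so that rate need not hold here.

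The change between the high-score and low-score groups differed between the lines, by the edgeR interaction test, in 22 genes. On the log2 scale, *Gpsm3* line minus *Dock2* line, the lowest estimates were -10.36 for 9530053A07Rik, -4.48 for *Pnliprp1*, -2.03 for *Ces1b*, -1.77 for *Pnliprp2* and -1.61 for *D630033O11Rik*. The highest were 5.05 for *Igkv10-94*, 4.83 for *Ighg1*, 4.79 for *Ighv9-3*, 1.39 for *Slc5a5* and 0.76 for *Prps1*. 9530053A07Rik rested on single mice, since its medians lay between 0.927 and 4.50 CPM in the 4 groups while its highest value was 14440 CPM. *Pnliprp1*, a pancreatic lipase relative, likewise had a high-score median of 0.487 CPM in the *Dock2* line and a highest value of 51.4 CPM there. Female mice are present in the *Dock2* line alone, and in males alone 0 genes passed in either direction, with 448 at an unadjusted p under 0.05.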

How the results depend on the processing

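Counts of called genes moved with the fold minimum, the filter and the cut. With no low-count filter 2172 genes were called higher and 704 lower, with at least 10 counts in every sample 503 and 101, and with no fold minimum 5585 and 5370. Cutting the ranking into 2 groups gave 544 and 82. Genes called lower numbered 138 in the *Dock2* line alone, 377 in the *Gpsm3* line alone and 601 in its longer sample numbers alone. Cutting it into 4 groups and comparing the outer ones gave 294 genes without overlap on the higher side and 140 on the lower. Under the other settings tried these counts stayed within 1.5 times. DESeq2 called 754 and 254, limma-voom 641 and 342, and the fit without the libraries with skin RNA, chosen after seeing the data, 710 and 283. Interaction counts (more positive, more negative in the *Gpsm3* line) were unstable: 16 and 56 with DESeq2, 2 more positive with limma-voom, 1 and 8 with 4 groups, 0 and 0 in males, 1 and 2 with at least 10 counts, 13 and 82 without libraries with skin RNA, and 11 and 32 without libraries under 10000000 counts. The *Dock2* score difference by genotype was 0.0366 in females. Small fold changes turned sign. *Clu* was -0.019 in the *Dock2* line, -0.051 in the shorter *Gpsm3* numbers, -0.002 with 2 groups and -0.136 in wild type. *Timp3* was -0.152 in the *Gpsm3* line, -0.171 and -0.129 in its longer and shorter numbers, -0.021 with limma-voom, -0.079 in males, -0.07 in wild type, -0.015 without the shallow libraries and -0.035 without skin RNA. *Kdr* was -0.211 in the shorter numbers, -0.016 with limma-voom and -0.018 without skin RNA. *Krt10* was -0.435 in the longer numbers, which hold none of the high-score libraries with skin RNA, and -0.426 without those libraries. Counting each named gene once per setting, 1737 fold changes kept their direction and side of the threshold, 44 lost their call, 17 gained one and 17 turned sign, and 26 line differences no longer passed and 35 kept their direction and side. The causes of the other moves were not tested. No paired analysis was possible because the labels carry sample numbers that tie no mouse of one group to a mouse of another.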

Other observations

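Some genes outside the lists, picked after their values were seen, moved as far as the neutrophil genes. *Acod1*, which makes itaconate in activated macrophages, had medians of 0.196 CPM in the low-score and 7.78 CPM in the high-score group. *Clca4b*, of the calcium-activated chloride channel regulator family, was 2.64 to 147 CPM (median 14.2) in the low-score and 57.9 to 2530 CPM in the high-score group, and 24 of 27 high-score mice lay above the low-score mice of their line. *Tnfrsf8*, which encodes CD30, had medians of 1.23 and 24 CPM. *Dhrs9*, a retinol dehydrogenase gene, was free of overlap, at 1.77 to 15 CPM and 22.6 to 287 CPM. On the lower side, *Slc30a10*, a manganese transporter gene, had medians of 20.6 and 1.12 CPM, and *Nxpe2* and *Dnah5* were below in 26 of 27 high-score mice.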
